A study of Mus musculus with 8 samples.

Results

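The genes described here encode the last 2 machines of mitochondrial oxidative phosphorylation, cytochrome c oxidase (complex IV) and ATP synthase (complex V). They were chosen by symbol alone, as every entry whose symbol starts with Atp5, equals Ndufa4, or starts with Cox followed by a digit. This gave 40 of 11854 named entries, 23 for complex IV and 17 for complex V. The groups were libraries labelled Nupr1_KO, from 4 mice of genotype Nupr1-/-, and libraries labelled WT, from 4 wild type mice. Both had the strain C57BL/6, the source was haematopoietic stem cells (HSCs) sorted from bone marrow, and 1 library of polyadenylated RNA was made per mouse. Nupr1 encodes a stress-responsive protein of the nucleus, and the series title concerns the quiescence of HSCs and p53 signalling. The age and sex of the mice, the surface markers of the sort and the design of the Nupr1 allele are not given in the sources used here.

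Complex IV takes electrons from cytochrome c, passes them through haem and copper centres to oxygen and pumps protons across the inner mitochondrial membrane. Complex V lets these protons flow back through a ring of c subunits, whose rotation drives ATP synthesis in the F1 head. The catalytic core of complex IV and some membrane subunits of complex V are encoded in mitochondrial DNA, and the genes described here supply the remaining subunits and assembly factors from the nucleus. Quiescent HSCs are known for leaning on glycolysis, with respiration increasing when they are activated.

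The table held 2296101 to 4769401 reads per library. All 40 genes passed the filter on low values, with between 2 and 6100 reads per gene and library, and their values are given as normalised reads, which are reads divided by 1 size factor per library. Exonic bases shared with another annotated gene, which unstranded reads cannot separate, were found for 9 of the 23 complex IV genes and 7 of the 17 complex V genes. Mitochondrially encoded genes were not analysed here, since the table had 0 such entries. Nupr1 itself had 119 to 201 normalised reads in Nupr1_KO libraries and 134 to 318 in WT libraries, which overlapped, so it did not separate the labels at the level of the whole gene. All 12 HSC markers looked up (among them Kit, Procr, Mecom and Hlf) were present and 0 of them passed the test. Markers of neutrophils (1 of 10 listed), B cells (2 of 8), monocytes and macrophages (2 of 8) and T and NK cells (3 of 8) were mostly outside the table. Those present still had reads. The neutrophil marker had 847 to 1445 normalised reads in Nupr1_KO libraries and 983 to 2908 in WT libraries. The monocyte and macrophage markers summed to 1419 to 2614 and 1632 to 3166, those of B cells to 213 to 277 and 240 to 893. Those of T and NK cells summed to 102 to 200 and 57.8 to 397. Megakaryocyte and platelet markers (8 of 10 in the table) summed to 2061 to 2602 normalised reads in Nupr1_KO libraries and 889 to 1288 in WT libraries, and 4 of them (Pf4, Itga2b, Gp9 and Vwf) rose. Erythroid markers (6 of 10 in the table) summed to 4177 to 6112 in Nupr1_KO libraries and 2275 to 4671 in WT libraries, and 1 of them, Klf1, rose. Beside these marker counts, 3.8% of all genes tested passed the test, with 1.68% higher and 2.12% lower in Nupr1_KO libraries. WT library 2 stood apart from the other 7 on the first principal component. Across genes, the deviation of a library from the mean of all libraries ran with the GC content of the transcripts in opposite directions in the 2 groups, with Spearman correlations of 0.154 to 0.308 in Nupr1_KO libraries and -0.312 to -0.146 in WT libraries.

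Of the 40 genes, 1 passed the test between the groups. Ndufa4, now counted as a structural subunit of complex IV, fell in Nupr1_KO libraries. Of the 23 complex IV genes, 0 rose, 1 fell and 22 did not pass the test, and of the 17 complex V genes 0 passed it in either direction. By limma with Benjamini-Hochberg adjustment over all 10989 genes tested, 3.8% of all genes passed an adjusted p of 0.05, with 1.68% higher and 2.12% lower in Nupr1_KO libraries. A count of 1 in 40 is therefore near the share among all genes. At an unadjusted p of 0.05, which 19.7% of all genes passed, 3 complex IV genes (Ndufa4, Cox6b1 and Cox7b) were lower, 2 complex V genes (Atp5d and Atp5b) were higher and 1 (Atp5h) was lower, where 9.91% of all genes were higher and 9.75% lower at this level. In bulk RNA, fewer cells of one type and less RNA per cell cannot be told apart. The median log2 change, Nupr1_KO minus WT, was -0.12 over complex IV genes and 0.09 over complex V genes, beside 0.03 over all genes tested. The complex V median includes Atp5s and Atp5sl, at 0.23 and 0.60, which are not core subunits, and its sign rests on including them. By role, the complex V medians were 0.26 for the F1 head and central stalk and -0.06 for the c ring. They were -0.08 for the peripheral stalk and -0.16 for the membrane subunits.

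**Figure D1:**
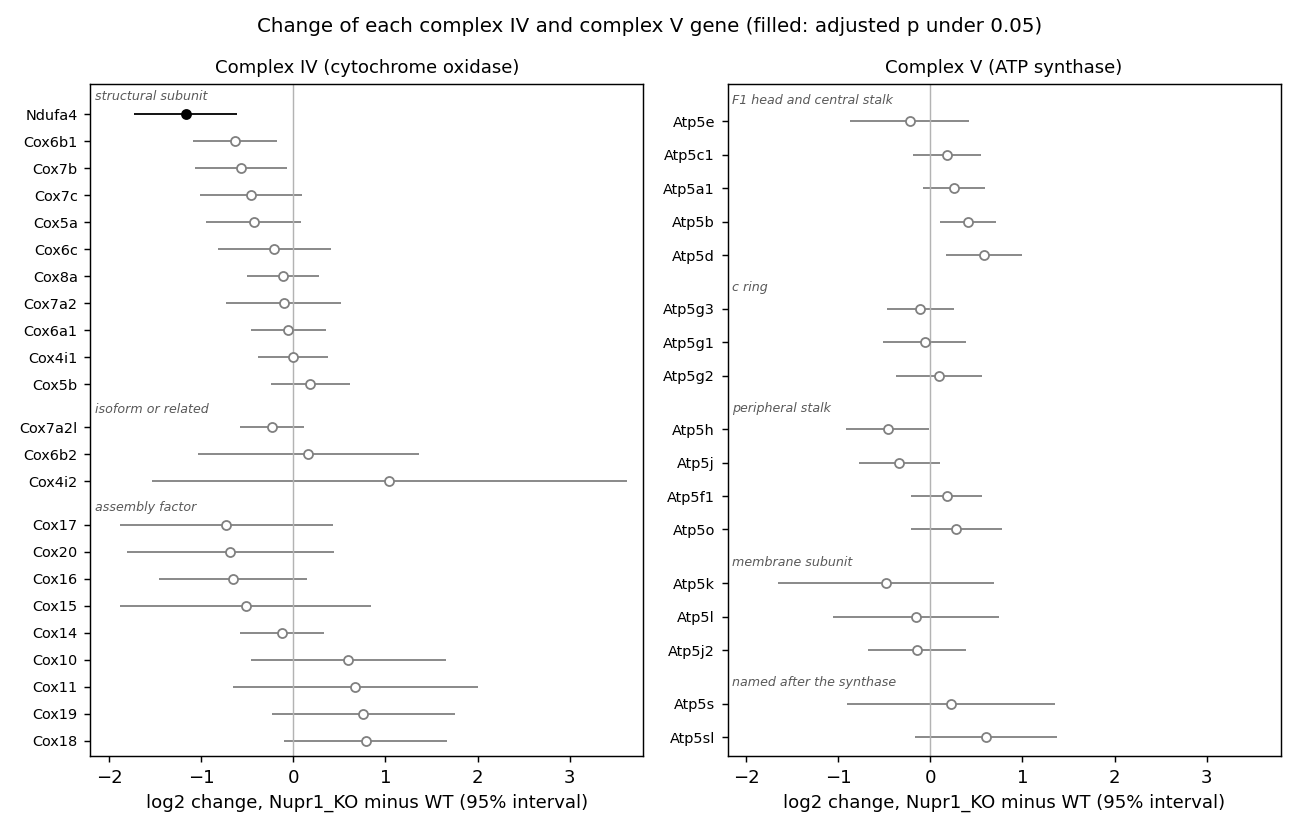
Log2 change (Nupr1_KO minus WT, points) with its 95% interval (lines) from the limma fit for each complex IV gene (left) and complex V gene (right), grouped by role. Ndufa4, at -1.17, is the only filled point, which marks an adjusted p under 0.05, and most other intervals cross 0.

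For 4 of the 40 genes (10%), all values of one group lay beyond all values of the other, beside 11.7% of all genes tested. Ndufa4 and Cox6b1 were lower in every Nupr1_KO library (5.91% of all genes), and Atp5b and Atp5d were higher (5.78% of all genes). Promoter stretches of 3 of these genes are shown, leaving out Atp5d, because nuclear respiratory genes are known to share short promoter elements, read by factors such as NRF1, the ETS protein GABP, YY1, NF-Y and Sp1. For Ndufa4, Cox6b1 and Atp5b, each stretch is the part of the RefSeq promoter window (build GRCm38.p6) that lies upstream of the start and outside annotated exons, written 5′ to 3′ on the strand of the gene. The positions are chr6:11907498-11907700 on the minus strand for Ndufa4, chr7:30626152-30626364 on the minus strand for Cox6b1 and chr10:128083057-128083272 on the plus strand for Atp5b. Capitals mark matches on either strand to the letters searched for these 5 factors.
Ndufa4: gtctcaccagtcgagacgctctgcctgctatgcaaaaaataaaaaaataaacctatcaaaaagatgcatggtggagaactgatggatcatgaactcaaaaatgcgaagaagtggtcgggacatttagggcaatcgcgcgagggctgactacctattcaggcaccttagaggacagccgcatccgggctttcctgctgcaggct
Cox6b1: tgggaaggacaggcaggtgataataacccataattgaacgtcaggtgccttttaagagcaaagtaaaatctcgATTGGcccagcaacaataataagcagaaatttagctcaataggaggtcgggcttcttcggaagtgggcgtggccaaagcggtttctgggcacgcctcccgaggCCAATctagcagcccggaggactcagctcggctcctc
Atp5b: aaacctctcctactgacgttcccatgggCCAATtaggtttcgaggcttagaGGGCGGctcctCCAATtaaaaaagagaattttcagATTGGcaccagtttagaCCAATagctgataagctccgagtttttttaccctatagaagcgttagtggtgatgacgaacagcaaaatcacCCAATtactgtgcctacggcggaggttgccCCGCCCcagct
The Ndufa4 stretch held 0 matches, the Cox6b1 stretch held 2 NF-Y matches, and the Atp5b stretch held 5 NF-Y and 2 Sp1 matches, none of which overlap.

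The windows of 300 bases, from 250 before to 50 after the RefSeq start, were available for 18 complex IV and 15 complex V genes. The letters searched, on both strands, were GCGCA and GCGC with any 1 base between them for NRF1, CCGGAAG for ETS, ATGGCGG for YY1, CCAAT for NF-Y and GGGCGG for Sp1. The NRF1 letters were in 1 complex IV window (Cox6a1) and in 6 complex V windows (Atp5c1, Atp5g2, Atp5g3, Atp5h, Atp5o and Atp5k), beside 12.5% of the windows of tested genes. The ETS letters were in 8 complex IV windows, among them Cox6b1, Cox8a and Cox10, and in 5 complex V windows, beside 21.5% of tested genes. The CCAAT letters were in 7 complex IV and 10 complex V windows, beside 43.4% of tested genes. For YY1 the counts were 2 and 3, beside 10.3%, and for Sp1 they were 10 and 5, beside 70.4%. The Ndufa4 window held none of these 5 sets of letters. Matches of different sets were counted apart and may overlap, and a match is a description of these letters and not a binding site.

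Ndufa4 (ENSMUSG00000029632.7, chr6:11900292-11907497, minus strand) was first described as a complex I subunit, for which it is named, and was later found in complex IV. It had 267, 329, 383 and 411 normalised reads in Nupr1_KO libraries 1 to 4, against 1269, 588, 561 and 846 in WT libraries 1 to 4. Every Nupr1_KO library lay below every WT library, and the WT libraries were the more spread. The means were 347 ± 63.5 in Nupr1_KO libraries and 816 ± 328 in WT libraries (SD, n = 4 each). The log2 change was -1.17 ± 0.27 (SE), with a limma adjusted p of 0.0234. The edgeR test on the recovered reads gave an adjusted p of 0.0245, in a fit that passed 3.1% of all genes, and DESeq2 gave 0.00104, where 6.95% passed. The exons of Ndufa4 overlap no other annotated gene, and no other annotated transcript matched its reference transcript at 95% identity over 100 bases. Set against Cox4i1, a core nuclear subunit of the same complex, Ndufa4 had 15.9, 18.1, 22.4 and 28.9 normalised reads per 100 of Cox4i1 in Nupr1_KO libraries, against 61.2, 46.4, 32.1 and 51.9 in WT libraries. This ratio, which library scaling does not touch, also did not overlap between the groups. It is open to the GC trend of the libraries, since Ndufa4 transcripts are 44.6% GC and those of Cox4i1 57.3%. With the GC and length trend of each library removed, their log2 changes were -0.64 and -0.42, which lie closer together. The part of this trend in the ratio was not tested.

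The call for Ndufa4 was not held by every library or setting. Leaving out Nupr1_KO library 1 or 2 gave adjusted p-values of 0.0819 and 0.0678, and leaving out WT library 1 or 4 gave 0.0718 and 0.0648, while its log2 change without single libraries lay between -1.32 and -0.93. With the trend of each library with GC content and length removed, the log2 change was -0.64 with a limma adjusted p of 0.283, in a fit that passed 0.211% of all genes (Ndufa4 transcripts are 44.6% GC). With WT library 2 also left out it was -0.67 with an adjusted p of 0.168, where 2.17% of all genes passed. Without WT library 2 alone the adjusted p was 0.00529, where 8.15% passed, and limma-voom gave 0.00945, where 5.92% passed. The part of the GC trend and of the megakaryocyte and erythroid markers in this result was not tested.

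**Figure D2:**
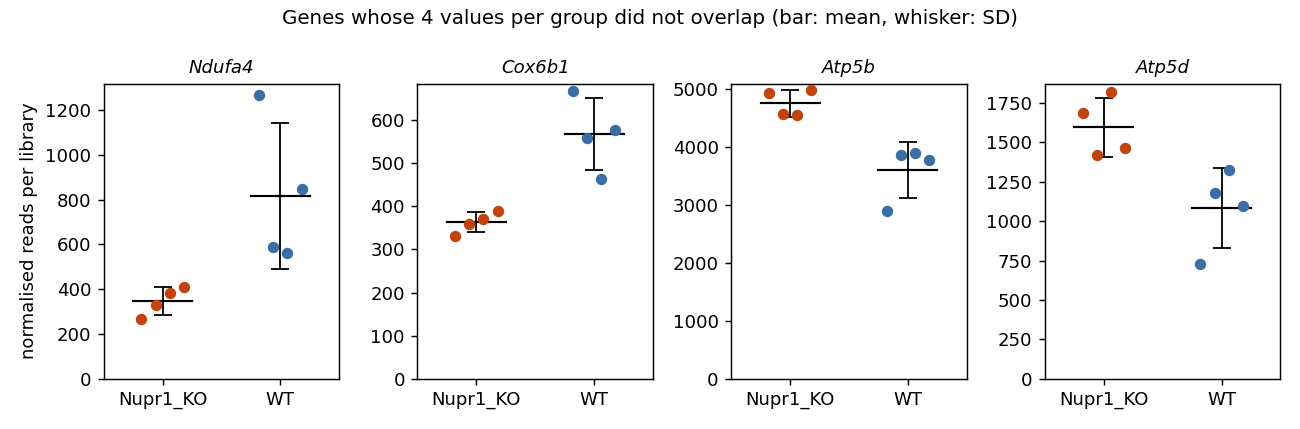
Normalised reads of Ndufa4, Cox6b1, Atp5b and Atp5d in the 4 Nupr1_KO libraries (left of each panel) and the 4 WT libraries (right), with points for libraries 1 to 4 in order, a bar for the mean and a whisker for the SD. Ndufa4 lies at 267 to 411 in Nupr1_KO libraries and at 561 to 1269 in WT libraries, with the highest point in WT library 1.

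Besides Ndufa4, the table held 10 structural subunits of complex IV. Of the 11 in all, 1 had a log2 change above 0 and 10 below it, with a median of -0.21, beside 51.3% of all tested genes above 0 and 48.7% below it. With the GC and length trend removed, 2 were above 0 and 9 below it, with a median of -0.32. Over all genes in that fit, 5508 were above 0 and 5381 below it, with a median of 0.01. Cox6b1, a subunit on the intermembrane side of the enzyme, had 332, 360, 371 and 389 normalised reads in Nupr1_KO libraries, against 668, 560, 465 and 577 in WT libraries. Its Nupr1_KO values lay close together and below all WT values. The log2 change of -0.63 ± 0.22 (SE) did not pass the limma test (adjusted p = 0.117), whereas DESeq2 gave an adjusted p of 0.049. Cox7b, a membrane subunit encoded on the X chromosome, had 303 to 484 normalised reads in Nupr1_KO libraries and 478 to 665 in WT libraries, which overlapped slightly. Its log2 change was -0.57 (limma adjusted p = 0.197), and -0.04 with the GC trend removed.

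Cox4i1, the largest nuclear subunit and the one through which ATP is known to inhibit the enzyme, was nearly equal in the groups. It had 1424 to 1823 normalised reads in Nupr1_KO libraries and 1267 to 2073 in WT libraries, with a log2 change of -0.0029 and a 95% interval of -0.38 to 0.37. The change was -0.42 with the GC trend removed (57.3% GC). Cox8a, the smallest membrane subunit, had 1143 to 1420 normalised reads in Nupr1_KO libraries and 1063 to 1679 in WT libraries. Its log2 change was -0.11, and -0.48 with the GC trend removed (58.5% GC). Cox5b, a zinc-binding subunit on the matrix side, was the structural subunit with a log2 change above 0, at 0.19 with a limma adjusted p of 0.654. Cox5a, its neighbour on the matrix side, had a log2 change of -0.43, and the small membrane subunits Cox7c, Cox6c, Cox7a2 and Cox6a1 had -0.46, -0.21, -0.10 and -0.06, with limma adjusted p-values between 0.348 and 0.907 for these 5 genes. With the GC trend removed, Cox7c turned to 0.14 and Cox6a1 was -0.45. Pseudogenes close in sequence are annotated for Cox6c, Cox7b and Cox7c, so their counts are less certain.

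Tissue isoforms of complex IV subunits were minor or variable. Cox4i2, the isoform of subunit 4 known to be induced by low oxygen, made up 0.13% to 1.75% of the summed Cox4i1 and Cox4i2 reads in Nupr1_KO libraries and 0.0926% to 1.98% in WT libraries. Its 8 values were 23.3, 32.4, 26.5 and 1.9 normalised reads in Nupr1_KO libraries, against 2.8, 25.6, 13.0 and 1.5 in WT libraries, so that high and low libraries occurred in both groups. Cox6b2, an isoform known from testis, made up 12.7% to 16.5% of the summed Cox6b1 and Cox6b2 reads in Nupr1_KO libraries and 4.90% to 15.9% in WT libraries. Cox7a2l encodes a protein that joins complexes III and IV into supercomplexes, and in C57BL/6 mice it is known to be made in a shortened form. It was the most abundant gene of complex IV, with 2576 to 3522 normalised reads in Nupr1_KO libraries and 2804 to 4247 in WT libraries (log2 change -0.23, limma adjusted p = 0.471). Per length, Cox7a2l was 86.3% ± 1.26 of the sum of Cox7a2 and Cox7a2l in Nupr1_KO libraries and 87.1% ± 3.35 in WT libraries (SD, n = 4 each). A two-sided exact permutation test gave p = 0.714, also after adjustment over 4 isoform shares, where the smallest p possible is 0.0286.

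Of the 9 assembly factors among the Cox symbols, 4 had a log2 change above 0 and 5 below it, and 0 passed the test. Those that insert copper or move it towards the enzyme did not share a sign. Cox17, the copper chaperone, had 33.6 to 69.8 normalised reads in Nupr1_KO libraries and 50.3 to 185 in WT libraries. Cox11, needed for the copper site of the Cox1 protein, had 31.8 to 107 in Nupr1_KO libraries and 14.6 to 66.0 in WT libraries, and Cox19, another copper-handling protein, had 86.0 to 139 in Nupr1_KO libraries and 43.4 to 135 in WT libraries. The groups overlapped for all 3. Cox10 and Cox15, the enzymes that turn haem B into haem O and then haem A, had log2 changes of 0.60 and -0.52, both with wide 95% intervals (-0.46 to 1.65 and -1.88 to 0.85). The factors for the Cox2 protein had log2 changes of 0.79 (Cox18), -0.65 (Cox16) and -0.68 (Cox20), with limma adjusted p-values of 0.313, 0.362 and 0.508. With the GC trend removed these were 0.56, -0.01 and -0.14 (53.0%, 41.6% and 44.4% GC). Cox14, a factor for the Cox1 protein, was close in the groups, with 405 to 475 normalised reads in Nupr1_KO libraries and 409 to 526 in WT libraries. Cox16 shares 2130 exonic bases with the readthrough gene Gm20498, and Cox20 shares 804 with Hnrnpu. Cox11 shares 688 with Tom1l1, Cox15 449 with Entpd7 and Cutc, Cox17 257 with Gm21987 and Cox10 49 with 9630013K17Rik. Reads therefore cannot be assigned to these factors with certainty.

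In complex V, the subunits of the F1 head and its central stalk had mostly higher values in Nupr1_KO libraries, without any gene passing the test. Of 5 F1 genes, 4 had a log2 change above 0 and 1 below it, with a median of 0.26, which was 0.07 with the GC trend removed. Atp5b, which encodes the catalytic beta subunit, had 4926, 4567, 4546 and 4987 normalised reads in Nupr1_KO libraries, against 2890, 3861, 3888 and 3775 in WT libraries. All Nupr1_KO values were above all WT values, and WT library 1 was the lowest. The log2 change was 0.41 ± 0.15 (SE), with a limma adjusted p of 0.127, and it was 0.28 with the GC trend removed. Atp5d, the delta subunit of the central stalk, had 1684, 1420, 1819 and 1462 normalised reads in Nupr1_KO libraries, against 730, 1178, 1323 and 1099 in WT libraries. WT library 1 was again the lowest, and the groups did not overlap. The log2 change of 0.59 ± 0.20 (SE) had a limma adjusted p of 0.107, and it was 0.05 with the GC trend removed (60.4% GC). Atp5d also shares 68 exonic bases with Cbarp on the other strand, which a kit that does not mark strand cannot separate.

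Atp5a1, the alpha subunit, had 2548 to 2974 normalised reads in Nupr1_KO libraries and 2075 to 3018 in WT libraries, where WT library 2 held the highest value. Atp5c1, the gamma subunit that turns inside the head, had 1436 to 2059 in Nupr1_KO libraries and 1239 to 1710 in WT libraries. Their log2 changes were 0.26 and 0.18, and 0.07 and 0.23 with the GC trend removed. Atp5e, the small epsilon subunit, was the F1 gene with a log2 change below 0, at -0.22, and ranged from 214 to 308 in Nupr1_KO libraries and from 202 to 487 in WT libraries. Summed over the 5 genes, F1 transcripts came to 10562 to 11544 normalised reads in Nupr1_KO libraries and 7586 to 9988 in WT libraries. These sums did not overlap, but this depended on the scaling of the libraries. Scaled to the total reads of each library, WT library 2 lay slightly above Nupr1_KO library 3. Atp5b and Atp5a1 dominate this sum, at 23.4% and 14.7% of all complex V reads.

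The c ring is built from 1 mature protein encoded by Atp5g1, Atp5g2 and Atp5g3. The share of each gene differed between the groups by less than its SD among WT libraries. For Atp5g2 the difference was larger than its SD among Nupr1_KO libraries. Per length, Atp5g2 gave 50.5% ± 2.52 of their sum in Nupr1_KO libraries and 47.3% ± 6.69 in WT libraries. Atp5g3 gave 31.7% ± 3.18 in Nupr1_KO libraries and 34.2% ± 6.00 in WT libraries, and Atp5g1 gave 17.8% ± 1.24 in Nupr1_KO libraries and 18.5% ± 1.47 in WT libraries (SD, n = 4 each). Two-sided exact permutation tests gave adjusted p-values of 0.714 for all 3 shares. The differences, Nupr1_KO minus WT, were 3.14, -2.50 and -0.64 percentage points for Atp5g2, Atp5g3 and Atp5g1. The share of Atp5g1 per length is uncertain, since its coding transcripts range from 596 to 4715 bases, and Atp5g2 has a near-identical copy, Gm10175, in the table.

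The peripheral stalk, which keeps the head from turning with the ring, was split, with 2 of 4 genes above 0 and 2 below. Atp5h, its d subunit, had 579 to 845 normalised reads in Nupr1_KO libraries and 722 to 1124 in WT libraries (log2 change -0.46, limma adjusted p = 0.242). Atp5j, coupling factor 6, had 696 to 777 in Nupr1_KO libraries and 725 to 1329 in WT libraries. Its exons overlap by 397 bases those of Gabpa on the other strand, the gene for the DNA-binding subunit of GABP. Atp5f1, the b subunit, and Atp5o, which encodes the subunit that fastens the stalk to the head, had log2 changes of 0.18 and 0.28. Their exons share 540 and 945 bases with other annotated entries. The stalk genes summed to 3403 to 3937 normalised reads in Nupr1_KO libraries and 3110 to 4612 in WT libraries. The membrane subunits e, f and g, known for shaping the dimer of the enzyme, had log2 changes of -0.48 (Atp5k), -0.14 (Atp5j2) and -0.16 (Atp5l). Limma adjusted p-values were 0.675 or above for these 3 genes, and Atp5l is uncertain, with 9 annotated pseudogenes that match it at 95% identity or more. Atp5h has 4 such pseudogenes, and Atp5f1, Atp5o and Atp5k have 1 each, so their counts are also less certain. Atp5s and Atp5sl carry the name of the synthase but are not among its core subunits, and Atp5sl, whose current symbol is Dmac2, is known as a complex I assembly factor. Their log2 changes were 0.23 and 0.60, with limma adjusted p-values of 0.854 and 0.382.

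Summed over all members, the groups overlapped for complex IV. For complex V the separation depended on the scaling of the libraries and on including Atp5s and Atp5sl. Complex IV summed to 10644, 12034, 10768 and 10855 normalised reads in Nupr1_KO libraries, against 14965, 10469, 11910 and 14285 in WT libraries. These overlapped, with WT library 2 the lowest of all 8 and WT library 3 also below Nupr1_KO library 2. Cox7a2l made up 27.1% of the complex IV sum over all libraries, and assembly factors are also counted in it. Neither this sum nor the ratio given below is therefore a level of structural subunits alone. Complex V summed to 18841, 18868, 18497 and 18999 in Nupr1_KO libraries, against 16141, 16147, 16821 and 18416 in WT libraries, a narrow gap between 18497 and 18416. Scaled to the total reads of each library, as CPM, the complex V sums were 5287 to 5832 in Nupr1_KO libraries and 4861 to 5413 in WT libraries, which overlapped. Atp5s and Atp5sl, which are not core subunits, had 55.7 and 298 normalised reads in Nupr1_KO library 3 and 59.7 and 187 in WT library 4. Without them, the summed normalised reads of complex V also overlapped between the groups. The ratio of complex IV to complex V reads within a library, which does not depend on scaling, was 0.565, 0.638, 0.582 and 0.571 in Nupr1_KO libraries, against 0.927, 0.648, 0.708 and 0.776 in WT libraries. The nearest values were those of Nupr1_KO library 2 and WT library 2. Without Ndufa4 the ratio was 0.550 to 0.620 in Nupr1_KO libraries and 0.612 to 0.849 in WT libraries, so the gap between the groups closed, whereas without Atp5b it was 0.765 to 0.841 in Nupr1_KO libraries and 0.852 to 1.13 in WT libraries. These ratios are descriptions with no test. The megakaryocyte and platelet marker sums given above did not overlap between the groups, and their part in the sums was not tested.

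**Figure D3:**
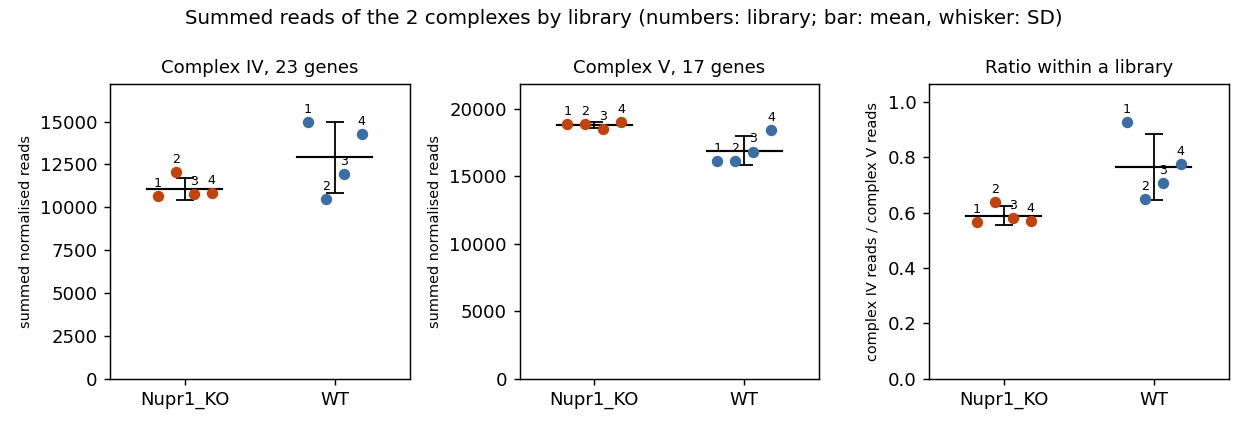
Summed normalised reads of the 23 complex IV genes (left) and the 17 complex V genes (middle), and their ratio within each library (right), with Nupr1_KO libraries left of WT libraries in each panel. Numbers name the library, bars are means and whiskers SDs; the ratio is 0.565 to 0.638 in Nupr1_KO libraries and 0.648 to 0.927 in WT libraries.

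Levels could be compared between genes only per transcript length. In normalised reads per kilobase over all 8 libraries, Cox7a2l (3024), Atp5g2 (2943), Cox8a (2400), Cox4i1 (2241) and Atp5b (2182) led the order, and their ranges over libraries overlapped. Ndufa4 was fifteenth at 954, with 570 ± 104 in Nupr1_KO libraries and 1338 ± 537 in WT libraries (SD, n = 4 each). The assembly factor of highest level was Cox14, at rank 22, and the lowest genes were Cox15 (11.1), Cox4i2 (21.8) and Atp5s (36.6). Subunits of 1 enzyme differed in transcript level, as for Cox7a2 at 465 beside Cox4i1, and these levels rest on 1 reference transcript per gene.

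**Figure D4:**
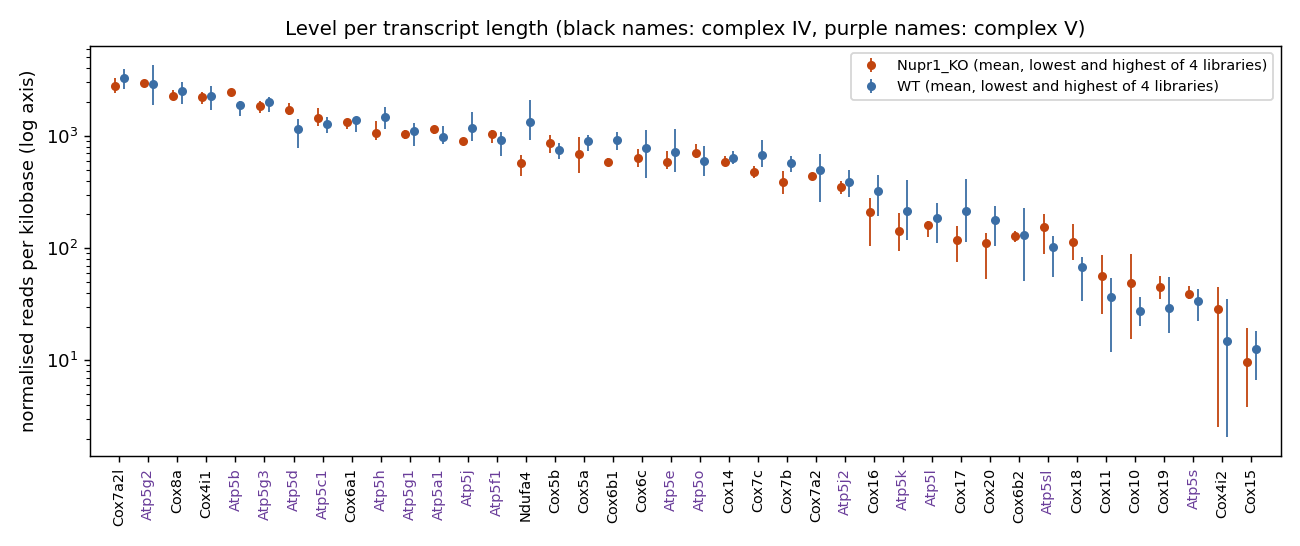
Normalised reads per kilobase of reference transcript (log axis) of the 40 genes in falling order of their mean over all libraries, with Nupr1_KO left of WT for each gene. Points are means and lines run from the lowest to the highest of 4 libraries. The order runs from Cox7a2l at 3024 to Cox15 at 11.1. The lines of the 2 groups are apart for Ndufa4, Cox6b1, Atp5b and Atp5d.

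Across the 40 genes, the log2 change ran with transcript length and with GC content. The Spearman correlation with the length of the reference transcript was 0.54 over the 40 genes, beside -0.07 over 10423 tested genes with a length, and it was 0.56 after each library's GC and length trend had been removed. Taken apart, it was 0.47 over complex IV genes (n = 23) and 0.71 over complex V genes (n = 17). The members were short, with a median of 725 bases beside 2695 over the tested genes. With GC content the correlation was 0.49 over the 40 genes and 0.46 over all tested genes, and -0.11 over the 40 genes after removal of the trend. It was 0.65 over complex IV genes and 0.18 over complex V genes, and after removal -0.09 and -0.41. Both are descriptions across genes that share the same 8 libraries, and genes are not independent replicates. Median GC content was 51.0% for complex IV genes and 51.6% for complex V genes. After removal of the trend the median log2 change was -0.16 over complex IV genes and 0.05 over complex V genes, beside 0.01 over all genes, and 0 of the 40 genes passed the test.

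**Figure D5:**
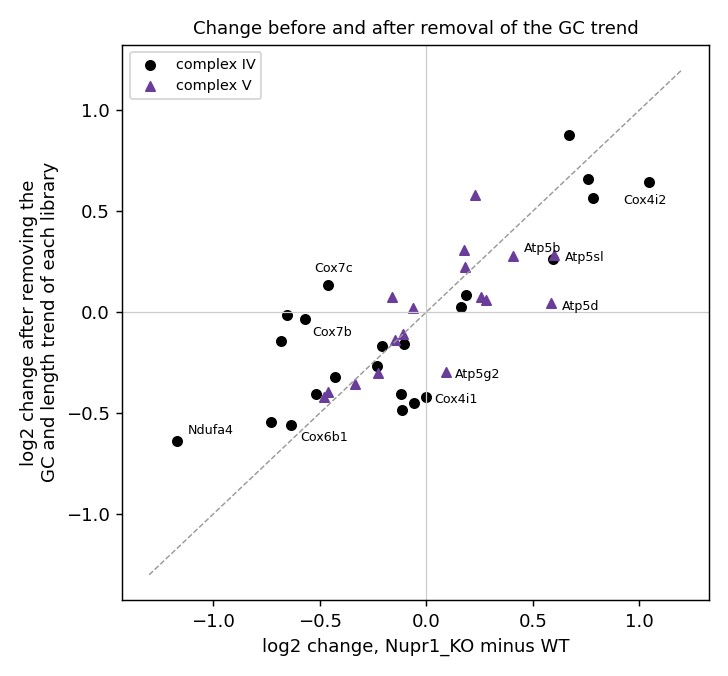
Log2 change (Nupr1_KO minus WT) of each complex IV gene (circles) and complex V gene (triangles) as deposited (x axis) and after removing each library's trend with GC content and length (y axis), with the line of equal values dashed. Ndufa4 goes with -1.17 on the x axis and -0.64 on the y axis, Atp5d with 0.59 and 0.05.

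The other parts of the respiratory chain were looked at with lists of their subunits. Of 36 complex I subunits tested, 0 passed the test, where 3.8% of all genes tested passed. Of these subunits, 10 had a log2 change above 0 and 26 below it, with a median of -0.24. Over all genes tested, 51.3% were above 0 and 48.7% below it. Of 4 complex II subunits, 0 passed it. Among 10 genes of complex III with cytochrome c, which delivers electrons to complex IV, 2 rose and 0 fell. Over all genes tested, 1.68% rose and 2.12% fell. By sign, 3 of these 10 genes had a log2 change above 0 and 7 below it, with a median of -0.17. Uqcrc1, a core subunit of complex III, had 1636 to 2482 normalised reads in Nupr1_KO libraries and 700 to 1182 in WT libraries (log2 change 1.004 ± 0.20 SE, limma adjusted p = 0.0145). Cyc1, the cytochrome c1 that hands electrons to cytochrome c, had 626 to 988 in Nupr1_KO libraries and 303 to 489 in WT libraries (log2 change 0.9997 ± 0.23 SE, limma adjusted p = 0.0236). With the GC trend removed their log2 changes were 0.73 and 0.53, with limma adjusted p-values of 0.165 and 0.336. These lists are described by their counts, with no set test. Of 17 complex IV assembly factors outside the Cox symbols (such as Surf1 and Sco1), 7 assembly or regulatory factors of complex V, 6 carriers of ATP and phosphate and 13 regulators of respiratory genes (such as Nrf1, Gabpa and Tfam), 0 passed the test.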

How the data were processed

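Per the labels' protocols, HSC RNA was converted to cDNA following earlier work and built into libraries with the Nextera XT kit, which does not mark strand. The submitters' processing notes name HISAT2, featureCounts, Subread, DESeq2 and bcl2fastq, with build mm10 and no versions. The deposited signal per gene is, by its values, reads divided by 1 size factor per library: 100% of values came out as whole reads within 0.001, and the recovered reads numbered 2296101 to 4769401 per library. The 1 entry without a name held 0.000401% of the signal and was left out.

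The main test was limma 3.58.1 (trend and robust, R 4.3.3, two-sided) on log2(value + 1), which understates changes of low genes, for the 10989 genes that reached 10 in 4 or more libraries (865 left out), with Benjamini-Hochberg adjustment over all of them and a threshold of 0.05. Alternatives were edgeR 4.0.16 and DESeq2 1.42.0 on recovered reads, limma-voom, other scalings, an added value of 5, no filter, single libraries left out, a replicate block, and removal of each library's GC and length trend (natural splines, 5 degrees of freedom). GENCODE M21 (mm10) gave positions, exon overlaps and lengths; the reference transcript is the shortest coding transcript with the best support. Values are given for members, called members of the lists and Nupr1, and other list genes are named only as examples of their list. Members and lists were chosen with earlier results of these data known. The fit was tested on simulated data.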

Additional observations from a re-analysis of the deposited data

Results flagged for a closer look

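Among 88 groups of 4 values examined, 5 held a library far from the other 3, and chance flags about 1 in 20 such groups. Atp5b had 2890 normalised reads in WT library 1, against 3775 to 3888 in the other WT libraries. Cox6a1 had 618 in WT library 1, against 828 to 850 in the others. Atp5a1 had 2548 in Nupr1_KO library 3, against 2918 to 2974 in the others. Cox14 had 475 in Nupr1_KO library 2, against 405 to 406 in the others, and Atp5l had 68.6 in the same library, against 94.5 to 95.4.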

How the results depend on the processing

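The number of genes passing over the whole table, 418, was 764 with DESeq2, 651 with limma-voom, 277 with the replicate block, 23 with the GC and length trend removed, 23 with that removal and the block, and 233 with that removal and WT library 2 left out, an alternative chosen after seeing the data. It ranged from 48 to 883 without single libraries, the highest without WT library 2. The complex IV count of 1 was 2 with DESeq2 (Ndufa4 and Cox6b1), 0 in each of the 3 fits with the GC trend removed, and 0 to 1 without single libraries. The complex V count was 0 in all 19 alternatives. The median log2 change of complex IV genes was -0.33 without WT library 2 and lay between -0.33 and -0.015 over the single libraries left out. That of complex V genes was -0.055 with limma-voom and -0.064 with the GC trend removed and WT library 2 left out, and ranged from -0.090 (without WT library 2) to 0.19 over the single libraries left out, so its sign is not firm. Ndufa4 passed in 12 of 19 alternatives, with log2 changes of -1.32 to -0.64 and adjusted p-values of 0.00104 to 0.348. Uqcrc1 passed in 15 of 19 and Cyc1 in 12 of 19. The cause of these shifts was not tested.

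Log2 changes of 11 genes that did not pass the test changed sign under some alternatives, the largest of them Cox7c at -0.46. With the GC and length trend removed they were 0.14 for Cox7c, 0.022 for Atp5g1, -0.30 for Atp5g2 and 0.074 for Atp5l, the same with the replicate block added, and with WT library 2 also left out they were 0.12 for Cox7c, -0.44 for Atp5g2 and -0.026 for Atp5o. Cox6b2 was -0.031 with edgeR and -0.032 with DESeq2, and Atp5g2 was -0.055 with limma-voom. Without single libraries the ranges that crossed 0 were -0.13 to 0.11 for Cox4i1, -0.17 to 0.012 for Cox6a1, -0.47 to 0.0041 for Cox6c, -0.39 to 0.081 for Cox7a2, -0.21 to 0.49 for Cox6b2, -0.39 to 0.034 for Atp5e, -0.20 to 0.028 for Atp5g1, -0.090 to 0.30 for Atp5g2 and -0.39 to 0.0082 for Atp5l. The difference in the Cox7a2l share ranged from -1.84 to 0.573 percentage points, the highest without WT library 2.

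Same-numbered libraries did not deviate together (correlations of -0.06 to 0.01), so no pairing by number was seen. A pairing of the mice with little effect on the values would not show in these correlations. With the replicate block the direction and call of all 40 genes were as in the unblocked fit. For a gene as abundant as Cox4i1 the 95% interval still spanned -0.38 to 0.37 on the log2 scale, so changes within this range were not resolved for it. Some larger changes also did not pass the test with 4 mice per group. Examples are Cox6b1 at -0.63 (limma adjusted p = 0.117) and Atp5d at 0.59 (limma adjusted p = 0.107).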
